A study of Mus musculus with 14 samples.

Results

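CA074Me is a cell-permeable inhibitor of cathepsin B, a lysosomal cysteine protease, and the comparison described here asks what it did to the transcriptome of dendritic cells that received no further stimulus. It rests on 4 of the 14 arrays of the series, the 2 titled as CA074Me without stimulation and the 2 titled as DMSO control without stimulation, chosen by their titles and paired by biological replicate number. The cells were BALB/c bone marrow progenitors grown for 8 days with recombinant GM-CSF and fed on days 3 and 6, called bone marrow-derived dendritic cells by the labels, which give neither sex nor age of the mice nor whether marrow was pooled. The CA074Me cultures received 5 µM inhibitor for 1 h, and the control cultures an equal volume of the solvent DMSO, 0.01%. No stimulus followed in either group, and when the cells were harvested is not stated in the labels. Per the design text the conditions were run in 2 independent experiments, so replicates 1 and 2 are experiments 1 and 2, and wherever 2 values are given for a group below the first is from experiment 1 and the second from experiment 2. Among the other 5 groups, 2 arrays each, 3 serve here for comparison: cells given 5 µM of the cathepsin L inhibitor CLIK148 for 1 h and no stimulus, cells given DMSO and then TNF at 500 U/mL (a stimulus labelled pro-Th2), and cells given 5 µM CA074Me and then TNF. The CpG groups entered no comparison named here. Their arrays count only in the choice and filter of probe sets, the check of pairing and an alternative fit of all 14 arrays.

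Cathepsin B degrades proteins delivered to lysosomes and belongs to a family of papain-like proteases that antigen-presenting cells hold at high levels. Several gene programmes report on the state of such cells. NRF2 is a transcription factor held down by KEAP1, a protein with reactive cysteines. When KEAP1 is modified by oxidants or electrophiles, NRF2 accumulates and switches on genes of glutathione and thioredoxin metabolism, heme breakdown and xenobiotic export through antioxidant response elements. Hypoxia-inducible factors switch on glucose transporters, glycolytic enzymes and oxygen sensors through hypoxia response elements, and in dendritic cells they are also engaged by activation with oxygen present. SREBP2 drives the genes of cholesterol synthesis, NF-kB and interferon signalling those of maturation and antiviral defence.

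The values are log2 expression summaries of probe sets on an Affymetrix mouse array, and differences are log2 units, so that 1 is a doubling. Array medians lay between 7.48 and 7.54 in all 14 arrays. A probe set that names 1 gene was found for 18194 genes, and 12173 of these passed the brightness filter and were tested. The profiles of the 2 DMSO arrays correlated with r = 0.984 and those of the 2 CA074Me arrays with r = 0.982. With 2 arrays a group, the number of arrays limits precision: the 95% confidence interval of a difference reached 0.16 log2 to either side for the median gene. These are bulk cultures, so fewer cells of a type and less RNA per cell cannot be told apart.

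The shift with CA074Me alone was small for nearly all genes. Of the 27 gene lists the oxidative stress and NRF2 genes, called NRF2 genes below, had the highest median difference and the glycolysis and hypoxia genes the lowest. The lists were chosen with earlier results of these data known, so their counts beside those of all genes are descriptions. In the limma fit of 10 arrays (5 groups with the experiment as a block) 0 of 12173 genes had an adjusted p under 0.05, or 0%, and the lowest adjusted p was 0.467. At an unadjusted p under 0.05 there were 753 genes, 6.19% of those tested, 129 of them higher with CA074Me (1.06%) and 624 lower (5.13%). The fit of the 6 unstimulated arrays alone, in which the TNF arrays do not enter the spread, called 36 genes (0.296%), 12 higher (0.0986%) and 24 lower (0.197%). The fit of only the 4 arrays compared called 172 genes, among them all 36, but these arrays are part of the 6.

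Calls of the 6-array fit are named as such below, and they are sensitive. Without the block for experiment it called 0 genes, with probe sets of a gene averaged 0, with arrays scaled on reference genes 1, after cyclic loess 5, and without the first DMSO array 4. The direction of all 36 was the same in each of these fits in which they were tested. The 36 were chosen for their differences on these same arrays, so the kept direction is no separate result. Without the block it could not turn, since each group holds 1 array per experiment. Over all 12173 genes, 2127 were higher with CA074Me in both experiments (17.5%) and 4599 lower in both (37.8%). That split depended on the scaling: of the genes with 1 sign in both experiments 31.6% were higher as deposited, 50.9% when scaled on reference genes and 48.5% after cyclic loess. Experiment 1 showed larger differences, with an SD over genes of 0.14 log2 against 0.10 in experiment 2. Across genes, which are not independent replicates, the differences of the 2 experiments correlated with r = 0.219.

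**Figure D1:**
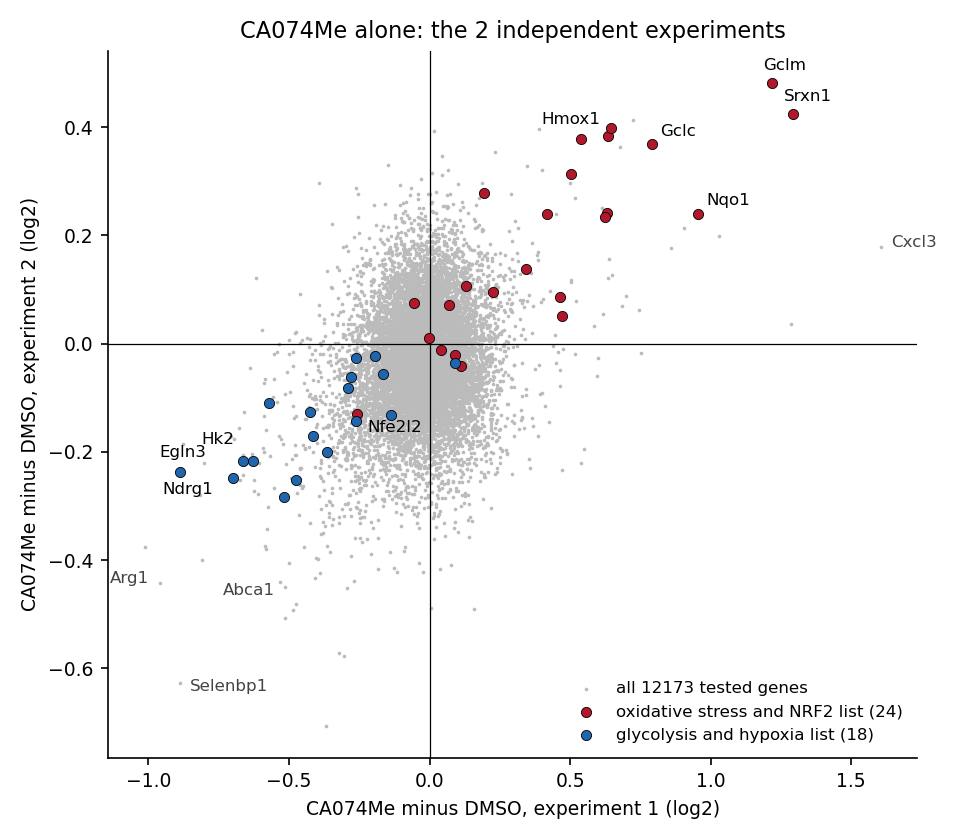
Each grey point is 1 of the 12173 tested genes, with its CA074Me minus DMSO difference in log2 units in experiment 1 on the x axis and in experiment 2 on the y axis, 1 array per group and experiment. Of the 24 tested NRF2 genes (red) 18 lie in the upper right, above 0 in both, and of the 18 tested glycolysis and hypoxia genes (blue) 17 lie in the lower left.

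The NRF2 genes stood above DMSO together. The list holds 28 genes of oxidative stress defence, of which 24 were tested (Prdx1, Prdx6, G6pdx and Ftl1 were not analysed here). Of the 24, 18 were higher with CA074Me in both experiments and 1 lower, against 17.5% and 37.8% of all genes, and for 9 the 2 CA074Me arrays both lay above both DMSO arrays, against 6.74%. At an unadjusted p under 0.05 in the 10-array fit 13 were higher (1.06% of all genes), and 7 were called higher in the 6-array fit (0.0986%). The median difference of the list was 0.27 log2, 0.44 in experiment 1 and 0.19 in experiment 2, beside -0.02 for all genes. With reference-gene scaling 20 of the 24 were higher in both experiments and with cyclic loess 22.

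Promoters are shown for 2 of the called genes whose window holds the core of the antioxidant response element, Gclm (chr3:122245307-122245556, plus strand) and Txnrd1 (chr10:82858956-82859205, plus strand). They are the 250 bases before the gene's start in RefSeq, build GRCm38.p6, in lower case with the core TGACNNNGC in capitals. In both the match is on the opposite strand and reads as the reverse complement of the core.
Gclm: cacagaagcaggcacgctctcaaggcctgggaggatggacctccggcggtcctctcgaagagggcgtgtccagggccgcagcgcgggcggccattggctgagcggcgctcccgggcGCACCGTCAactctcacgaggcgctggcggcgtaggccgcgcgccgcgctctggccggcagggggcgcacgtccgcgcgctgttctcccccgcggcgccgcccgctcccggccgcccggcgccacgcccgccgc
Txnrd1: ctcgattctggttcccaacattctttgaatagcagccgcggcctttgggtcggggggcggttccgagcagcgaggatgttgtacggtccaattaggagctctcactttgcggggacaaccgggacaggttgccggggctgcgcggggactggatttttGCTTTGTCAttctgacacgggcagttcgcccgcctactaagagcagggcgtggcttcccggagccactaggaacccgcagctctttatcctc
The core begins 134 bases before the start in Gclm, whose window also holds the ACGTG core described further below, and 92 bases before it in Txnrd1, 1 of that gene's 3 windows. Searched on both strands, TGACNNNGC occurred in 10.2% of all 32851 windows and in 5 of 27 windows of the list's genes (18.5%), which cover 20 of the 24. By gene it was 5 of 20 (25.0%), beside 14.2% of the tested genes with a window. The list was drawn up around NRF2, so this share describes the list and not the response. Such a match is a description of the letters in a window and does not say that NRF2 binds there. The windows of Srxn1, Nqo1, Slc7a11 and Blvrb held no such core. Hmox1, Gclc, Gsr and Abcc1 had no window and are named without a promoter.

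Srxn1, Gclm and Nqo1 had the largest mean differences, and Gclc followed. Srxn1, which repairs over-oxidised peroxiredoxins, measured 9.92 and 9.41 on the DMSO arrays and 11.21 and 9.83 on the CA074Me arrays. Gclm, the regulatory subunit of the enzyme that limits glutathione synthesis, measured 11.56 and 11.41 with DMSO and 12.78 and 11.90 with CA074Me, so that the groups did not overlap. Gclc, the catalytic subunit of that enzyme, lay at 9.51 and 9.57 with DMSO and at 10.30 and 9.94 with CA074Me. These 3 genes were higher in each experiment, by more in the first than in the second. The difference was 0.86 ± 0.23 (SE, n = 2 arrays a group) for Srxn1, 1.81-fold, 0.85 ± 0.25 for Gclm, 1.80-fold, and 0.58 ± 0.21 for Gclc, 1.49-fold. Every value after ± is the SE of the 10-array fit, also where an adjusted p of the 6-array fit stands beside it. In the 6-array fit limma called all 3, with adjusted p of 0.046, 0.041 and 0.033, while in the 10-array fit the adjusted p was 0.51, 0.61 and 0.72.

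Thioredoxin reductase (Txnrd1) measured 12.27 and 11.84 with DMSO and 12.91 and 12.24 with CA074Me, a difference of 0.52 ± 0.11, and it was called in the 6-array fit (adjusted p = 0.026). Glutathione reductase (Gsr) went from 10.83 and 10.99 to 11.46 and 11.23, with no overlap, and the cystine importer Slc7a11 from 9.88 and 9.70 to 10.50 and 9.94, also with no overlap. Both missed the threshold in the 6-array fit (adjusted p = 0.056 for each). The quinone reductase Nqo1 measured 9.23 and 8.51 with DMSO and 10.19 and 8.75 with CA074Me, and here the groups overlapped because the second experiment was lower in both. Its adjusted p in the 6-array fit was 0.13.

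The list also holds genes of heme breakdown. Hmox1, heme oxygenase 1, measured 10.91 and 11.00 with DMSO and 11.54 and 11.38 with CA074Me, a difference of 0.51 ± 0.14. Blvrb, a biliverdin reductase, which acts on the product of that step, lay at 12.03 and 11.31 with DMSO and at 12.57 and 11.69 with CA074Me, a difference of 0.46 ± 0.08. Both rose in the 6-array fit (adjusted p = 0.024 for each), and both kept the call there with cyclic loess. Abcc1, which exports glutathione conjugates, measured 11.47 and 11.22 with DMSO and 11.97 and 11.53 with CA074Me and was called in the 6-array fit (0.41 ± 0.11, adjusted p = 0.046).

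Further members differed less. The glutathione transferase Gsta3 lay 0.33 ± 0.09 above DMSO with no overlap, catalase (Cat) 0.26 ± 0.09, and the NADPH-making enzyme Me1 0.24 ± 0.07. The pentose phosphate enzymes Taldo1 and Pgd lay 0.16 and 0.12 above, and Tkt, of the same pathway, 0.00. The regulators themselves did not follow their targets: Keap1 differed by 0.04, and Nfe2l2, which encodes NRF2, measured 13.17 and 12.35 with DMSO and 12.91 and 12.22 with CA074Me, the only member lower in both experiments (-0.19 ± 0.07). Sqstm1, an autophagy receptor whose gene is also an NRF2 target, measured 12.05 and 12.10 with DMSO and 12.35 and 12.38 with CA074Me, with no overlap and nearly the same difference in each experiment (adjusted p = 0.50 in the 10-array fit, 0.099 in the 6-array fit).

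**Figure D2:**
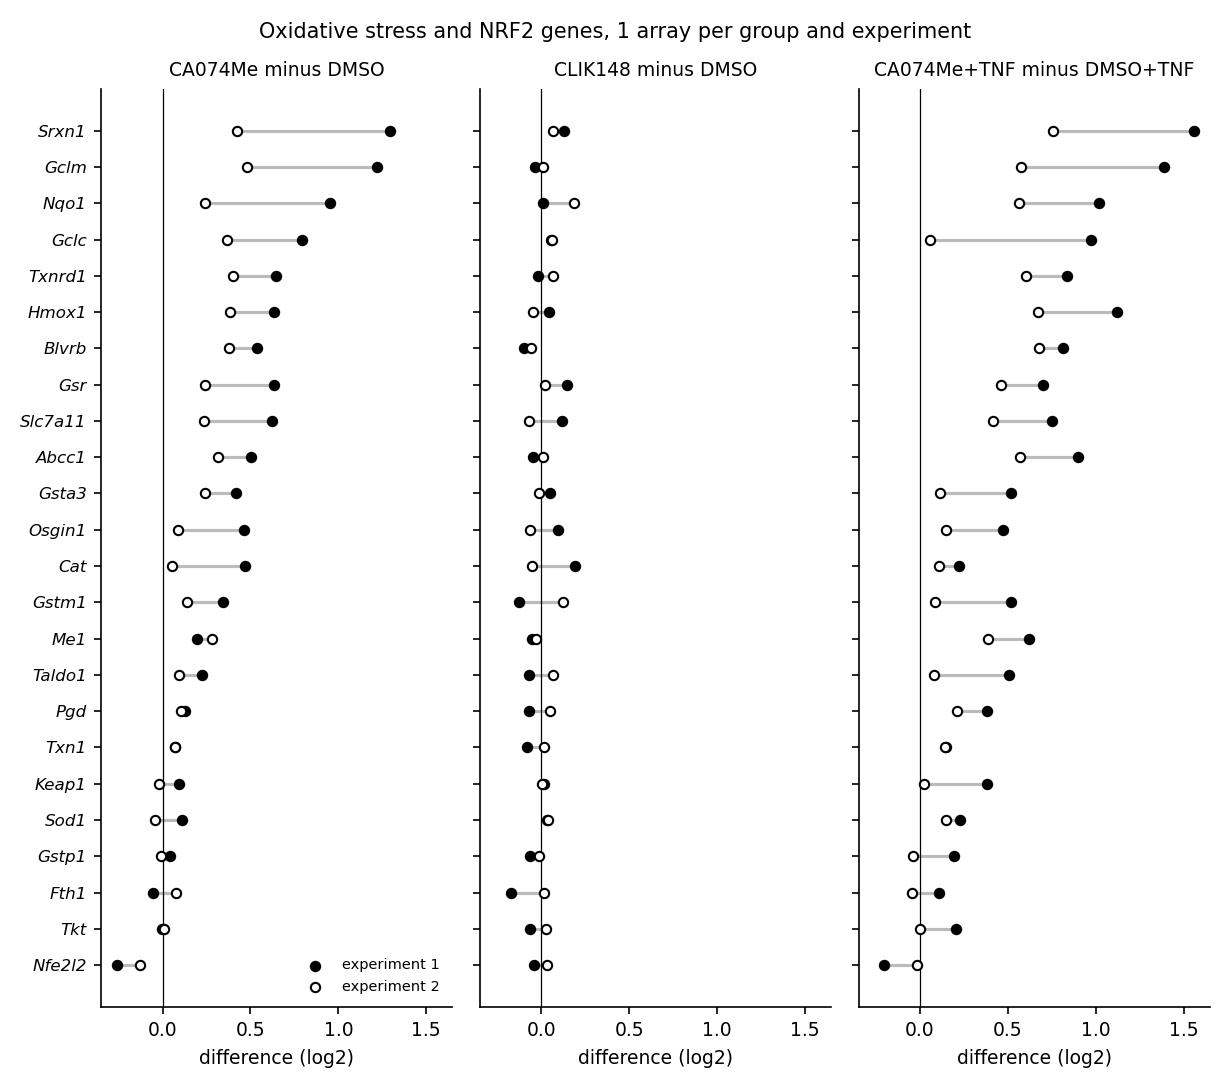
Differences in log2 units (x axis) for the 24 tested NRF2 genes (y axis) in 3 comparisons, filled points for experiment 1 and open points for experiment 2, each from 1 array per group, with a grey line joining the 2. CA074Me against DMSO gives Srxn1, Gclm and Nqo1 as the highest, CLIK148 against DMSO centres near 0, and CA074Me plus TNF against DMSO plus TNF has 21 members higher in both experiments.

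Outside the NRF2 list the 6-array fit called 5 more genes higher. Lipa, the lysosomal acid lipase that frees cholesterol and fatty acids from lipoprotein, measured 11.97 and 11.19 with DMSO and 12.64 and 11.55 with CA074Me (0.52 ± 0.13, adjusted p = 0.034), and its other 2 probe sets were higher in both experiments as well. Il1f9, a cytokine of the interleukin 1 family, measured 9.76 and 8.69 with DMSO and 10.48 and 9.10 with CA074Me (0.57 ± 0.17, adjusted p = 0.033). Cdkn2b, an inhibitor of cyclin-dependent kinases, Ear3, an eosinophil-associated ribonuclease, and Tma16, a ribosome assembly factor, lay 0.36, 0.39 and 0.34 above DMSO. Only Cdkn2b among these 5 had groups that did not overlap, since the experiments themselves were far apart for the rest.

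Among genes ranked by the 10-array fit, with no overlap but no call, were 2 regulators of myeloid cells. Spic, a transcription factor induced by heme in macrophages, measured 8.25 and 8.10 with DMSO and 8.75 and 8.40 with CA074Me (0.40 ± 0.08). Pik3cd, the delta catalytic subunit of phosphoinositide 3-kinase, measured 13.09 and 13.02 with DMSO and 13.54 and 13.26 with CA074Me (0.34 ± 0.07), and its CLIK148 arrays lay at 13.27 and 13.22. Grap2, Acta1 and Neurl1a, all within 1 log2 of the median of the array, lay 0.24, 0.27 and 0.25 above DMSO, and their CLIK148 arrays were above DMSO as well.

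**Figure D3:**
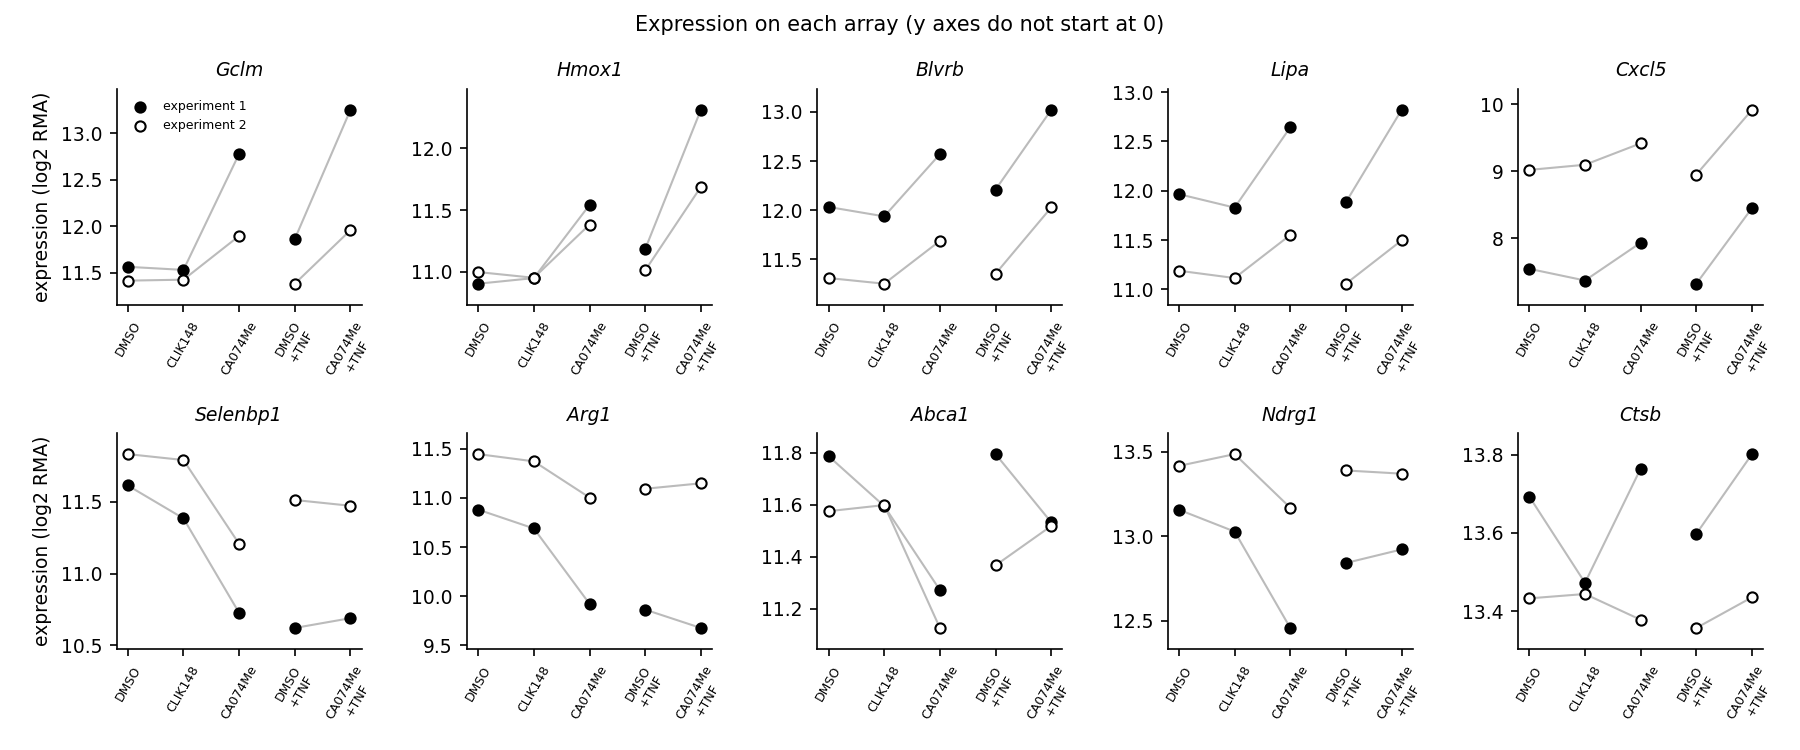
Expression in log2 RMA units (y axis, not starting at 0) on each array of the 5 groups used (x axis), filled for experiment 1 and open for experiment 2, with lines joining the groups of an experiment. Gclm, Hmox1, Blvrb and Lipa are higher and Selenbp1, Arg1, Abca1 and Ndrg1 lower with CA074Me than with DMSO in both unstimulated experiments, Cxcl5 parts further under TNF, and Ctsb, the gene of the inhibited enzyme, is higher in experiment 1 and lower in experiment 2.

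The glycolysis and hypoxia genes stood below DMSO together. Of the 20 listed, 18 were tested (Gpi1 and Eno1 were not analysed here), and 17 were lower with CA074Me in both experiments, beside 37.8% of all genes. For 12 the groups did not overlap, beside 13.1%, and 12 had an unadjusted p under 0.05 in the 10-array fit, beside 5.13%. None was called in either fit after adjustment over all genes. The median difference was -0.28 log2, -0.39 in experiment 1 and -0.14 in experiment 2. Scaling on reference genes, which include Gapdh of this list, gave 17 lower in both experiments, and cyclic loess 15.

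Sequences are shown for a list member and for a gene singled out by its p-value, whose windows hold the core of the hypoxia response element: Bnip3 (chr7:138909507-138909756, minus strand) and P4ha2 (chr11:54100674-54100923, plus strand). As above they are RefSeq windows of build GRCm38.p6 read along the gene, with the core ACGTG, or its reverse complement, in capitals.
Bnip3: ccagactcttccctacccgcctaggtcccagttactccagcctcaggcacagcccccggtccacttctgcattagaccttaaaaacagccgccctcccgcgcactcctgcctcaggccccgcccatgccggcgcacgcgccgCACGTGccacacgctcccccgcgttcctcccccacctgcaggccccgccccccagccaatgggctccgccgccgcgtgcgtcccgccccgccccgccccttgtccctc
P4ha2: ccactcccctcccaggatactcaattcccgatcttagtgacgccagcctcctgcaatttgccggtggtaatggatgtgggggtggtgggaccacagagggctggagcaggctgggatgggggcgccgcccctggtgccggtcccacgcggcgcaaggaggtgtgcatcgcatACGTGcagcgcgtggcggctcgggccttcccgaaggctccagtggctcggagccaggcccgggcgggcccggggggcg
In Bnip3 the capitals form CACGTG, which holds the core on both strands at 108 and 107 bases before the start and is also the E-box that other factors read. In P4ha2 the core begins 78 bases before the start. ACGTG on either strand occurred in 16.6% of all 32851 windows and in 13 of 24 windows of the list's genes (54.2%); by gene it was 11 of 17 (64.7%), beside 24.6% of the tested genes with a window. The list was drawn from textbook hypoxia targets, so this share describes the list and not the response.

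Egln3, a prolyl hydroxylase that is itself induced by hypoxia, had the largest difference of the list and measured 12.20 and 12.36 with DMSO and 11.31 and 12.12 with CA074Me (-0.56 ± 0.16). Ndrg1, a hypoxia-induced stress gene, measured 13.16 and 13.42 with DMSO and 12.46 and 13.17 with CA074Me (-0.47 ± 0.09), and all of its 5 probe sets were lower in both experiments. Bnip3, a mitophagy receptor, measured 13.83 and 13.90 with DMSO and 13.20 and 13.69 with CA074Me (-0.42 ± 0.09). For Egln3 and Bnip3 the groups did not overlap.

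Enzymes that admit glucose to glycolysis or hold pyruvate from the mitochondria lay lower in both experiments. Hexokinase 2 (Hk2) measured 12.60 and 12.69 with DMSO and 11.94 and 12.48 with CA074Me (-0.44 ± 0.12). Pdk1, which inhibits pyruvate dehydrogenase, measured 10.86 and 10.83 with DMSO and 10.35 and 10.54 with CA074Me (-0.40 ± 0.10) and came nearest to a call in the 6-array fit (adjusted p = 0.052, 0.47 in the 10-array fit). The phosphofructokinases Pfkl and Pfkp lay at -0.36 and -0.34 and Tpi1 at -0.29. Smaller differences were found for other enzymes: Pgk1 lay at -0.17, Ldha at -0.14, Pkm at -0.13 and Aldoa at -0.11. Hif1a, the regulator, was the 1 tested member with no shared sign, at 0.03 ± 0.08.

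Several genes outside the list that are known hypoxia targets were also low. Ankrd37 measured 10.71 and 10.93 with DMSO and 10.14 and 10.63 with CA074Me (-0.44 ± 0.09), and it fell in the 6-array fit (adjusted p = 0.046). P4ha2, a collagen prolyl hydroxylase, measured 8.36 and 8.51 with DMSO and 7.68 and 8.26 with CA074Me (-0.46 ± 0.10, adjusted p = 0.052 in the 6-array fit). Mgarp, a mitochondrial protein, measured 9.38 and 9.90 with DMSO and 8.57 and 9.50 with CA074Me (-0.61 ± 0.09, adjusted p = 0.024 in the 6-array fit). Ddit4, an inhibitor of mTOR complex 1, lay at -0.48 ± 0.12 and was called in the 6-array fit (adjusted p = 0.026), and Vegfa, the vascular growth factor, at -0.41 ± 0.10 was not (0.052). These genes were named for their p-values or as members of other lists, and they are not further evidence for the list.

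**Figure D4:**
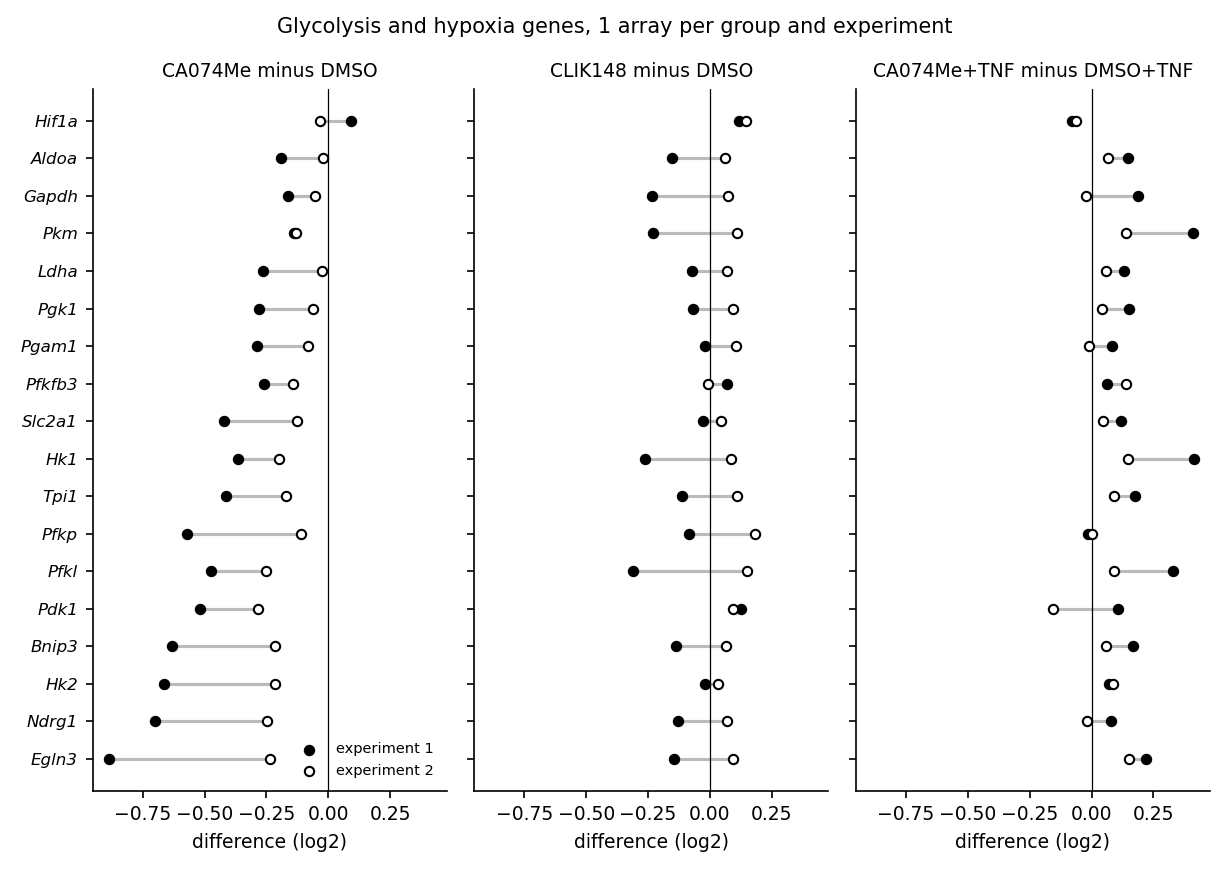
Differences in log2 units (x axis) for the 18 tested glycolysis and hypoxia genes (y axis), drawn as for the NRF2 genes. With CA074Me alone 17 lie below 0 in both experiments, with CLIK148 alone the 2 experiments fall on either side of 0 for most, and with CA074Me under TNF 12 lie above 0 in both.

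The gene furthest below DMSO was Selenbp1, a selenium-binding methanethiol oxidase. It measured 11.61 and 11.83 with DMSO and 10.73 and 11.21 with CA074Me, with no overlap, a difference of -0.76 ± 0.14, and DMSO stood 1.69-fold higher. It had the lowest adjusted p of the 6-array fit (0.0032) and was the 1 gene called there with reference-gene scaling. Another probe set of the gene gave -0.91 and -0.55 in the 2 experiments.

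Among the called genes furthest below DMSO were a pair that act on arginine, a grouping made after their values were seen. Arg1, arginase 1, a marker of alternative activation, measured 10.88 and 11.45 with DMSO and 9.92 and 11.00 with CA074Me (-0.70 ± 0.19). Slc7a2, a transporter of arginine and other cationic amino acids, measured 12.06 and 11.54 with DMSO and 11.05 and 11.17 with CA074Me (-0.69 ± 0.19), and all of its 4 probe sets were lower in both experiments. Both fell in the 6-array fit, with adjusted p of 0.024 and 0.046.

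Abca1, which exports cholesterol from the cell, measured 11.79 and 11.58 with DMSO and 11.27 and 11.13 with CA074Me (-0.48 ± 0.10, adjusted p = 0.024 in the 6-array fit), with the same size in each experiment; 2 dimmer probe sets of the gene gave smaller differences. Scd2, a fatty acid desaturase, measured 13.96 and 13.87 with DMSO and 13.48 and 13.67 with CA074Me (-0.34 ± 0.07, not called). The list of cholesterol efflux and LXR genes to which Abca1 belongs had 6 of 16 higher and 6 lower in both experiments and a median of 0.03, so Abca1 did not stand for it.

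The other genes that fell in the 6-array fit were of many kinds. Pdgfrb, a growth factor receptor and a stromal marker, measured 9.49 and 10.04 with DMSO and 9.12 and 9.33 with CA074Me (-0.54 ± 0.13). Ackr3, a scavenging chemokine receptor, measured 7.83 and 8.76 with DMSO and 7.31 and 8.26 with CA074Me (-0.51 ± 0.10). The matrix proteoglycan Vcan and the leptin receptor Lepr lay at -0.49 and -0.48 and kept the call with cyclic loess. The remaining called genes lower with CA074Me were Ahnak, Cxcl11, Lockd, Dixdc1, Mthfd1l, Slfn4, Klrd1, F13a1, Spata13, Sik3, Ift80, Dennd11 and Ppp1r3b, between -0.49 (Ahnak) and -0.34 (Ppp1r3b). For Ahnak the difference rests on the probe set used, since its dimmer ones gave -0.02, -0.02 and -0.04 in the mean. The long noncoding RNA Kcnq1ot1 (8.22 and 7.98 with DMSO, 7.76 and 7.73 with CA074Me) and Grhpr, a glyoxylate reductase (-0.44 ± 0.08), had no overlap and no call.

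Of 21 NF-kB targets, 15 were lower in both experiments and 0 higher, beside 37.8% and 17.5% of all genes, with a median of -0.14, -0.25 in experiment 1 and -0.03 in experiment 2; Tnfaip3, a brake on NF-kB, lay at -0.33 ± 0.13 and Bcl3, an atypical IkB protein, at -0.29 ± 0.07. Of 26 type I interferon genes 19 were lower in both and 0 higher, with a median of -0.13 and nearly equal medians in the 2 experiments (-0.12 and -0.14). Rsad2 and Ifit1, both antiviral effectors, lay at -0.38 ± 0.16 and -0.37 ± 0.16. No gene of these 2 lists was called in either fit, and reference-gene scaling gave 12 and 14 lower in both experiments, cyclic loess 8 and 15.

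The cytokine list had 8 of 16 lower in both experiments and 0 higher, with a median of -0.12. Il1b, interleukin 1 beta, measured 13.25 and 13.54 with DMSO and 12.45 and 13.32 with CA074Me (-0.51 ± 0.17). Il6 lay at -0.33 ± 0.25, and Tnf differed in sign between the experiments. Among 14 Th1-associated mediators 7 were lower and 0 higher in both (median -0.07). Cxcl11, a ligand of CXCR3, measured 9.68 and 8.86 with DMSO and 9.10 and 8.48 with CA074Me and was called in the 6-array fit (-0.48 ± 0.22, adjusted p = 0.032). Il12b, the p40 subunit of interleukins 12 and 23, lay at -0.23 ± 0.17 and Cxcl10 at -0.29 ± 0.18. Of 20 Th2-associated mediators 9 were lower and 2 higher in both, with a median of -0.05 and Arg1 as the only call. The maturation list, with surface costimulators such as Cd80 (-0.25 ± 0.12) and Cd40 (-0.23 ± 0.18), had 11 of 23 lower in both and a median of -0.09. With reference-gene scaling 7 of the maturation list were lower in both, and after cyclic loess 5 were lower and 7 higher. The shares lower in both of the cytokine, Th1, Th2 and maturation lists stand beside 37.8% of all genes, and their members are given as values.

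Chemokines were the list with the widest range. Cxcl3, a neutrophil attractant, had the largest mean difference of any tested gene, 0.89 ± 0.46, from 10.93 and 12.69 with DMSO to 12.53 and 12.87 with CA074Me, and nearly all of it came from experiment 1. Ppbp behaved alike at 0.66 ± 0.41 (8.66 and 10.15 with DMSO, 9.94 and 10.19 with CA074Me). Cxcl5, also a neutrophil attractant, was smaller and even: 7.54 and 9.02 with DMSO, 7.93 and 9.42 with CA074Me, 0.39 ± 0.08 (adjusted p = 0.47 in the 10-array fit, 0.052 in the 6-array fit). Over the 22 chemokines 6 were higher and 5 lower in both experiments, and the median was 0.00.

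No difference was detectable for the gene of the inhibited enzyme. Ctsb measured 13.69 and 13.43 with DMSO and 13.76 and 13.38 with CA074Me, a difference of 0.01 ± 0.09 with a 95% confidence interval from -0.19 to 0.20, and its sign turned with the mean of its probe sets. A transcript level says nothing of the enzyme's activity, which was not measured. Ctsl measured 13.36 and 13.78 with DMSO and 13.47 and 13.73 with CA074Me, and Ctss 14.98 and 14.76 against 14.98 and 14.75. Over all 15 cathepsins tested, each by its brightest probe set, differences ran from -0.14 (Ctsk) to 0.06 (Lgmn, legumain, an asparaginyl protease). Their median was -0.02, with 0 at an unadjusted p under 0.05. Dimmer probe sets of Ctsc were lower in both experiments, at -0.32 and -0.41 in the mean, beside -0.05 for the one used. The 13 tested cathepsin inhibitors had a median of -0.04, and none had an unadjusted p under 0.05.

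The organelle in which the enzyme works showed 1 called gene. Of 31 lysosomal genes, 9 were higher and 3 lower in both experiments, with a median of 0.02, and Lipa alone had an unadjusted p under 0.05 and a call. That count depended on the scaling: reference genes gave 13 higher and 1 lower, and cyclic loess 22 higher and 0 lower, with medians of 0.05 and 0.07. Tfeb, a transcription factor that drives lysosome formation, lay 0.01 from DMSO, and the proton pump subunit Atp6v1h lay 0.12 ± 0.07 above it. Autophagy genes had 5 of 19 higher and 9 lower in both and a median of -0.01, and the balance turned to 7 higher and 6 lower with reference genes and 9 higher and 4 lower after cyclic loess. The balance of all 12173 genes moved too, from 2127 higher and 4599 lower in both as deposited. It became 3314 and 3192 with reference genes and 3128 and 3323 after cyclic loess. Heat shock and metallothionein genes (13 tested, median -0.00), the unfolded protein and ATF4 genes (21, median 0.02), cell cycle (26, median -0.02), cell death (18, median -0.03) and matrix protease genes (17, median -0.02) lay near the median of all genes, and Ddit4 was the only call among these lists.

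Cholesterol synthesis lay lower mainly in experiment 1. Of 20 genes tested from a list of 24, 12 were lower in both experiments and 1 higher; 6 did not overlap with DMSO, beside 13.1% of all genes. The median was -0.13, with -0.27 in experiment 1 and -0.02 in experiment 2. Hmgcs1, an early enzyme, measured 13.15 and 13.17 with DMSO and 12.65 and 13.15 with CA074Me, and Fdft1, which makes squalene, and Sqle, which oxidises it, each lay at -0.26. No member was called, and 11 were lower in both experiments with reference-gene scaling (median -0.10) and 5 after cyclic loess (median -0.09).

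**Figure D5:**
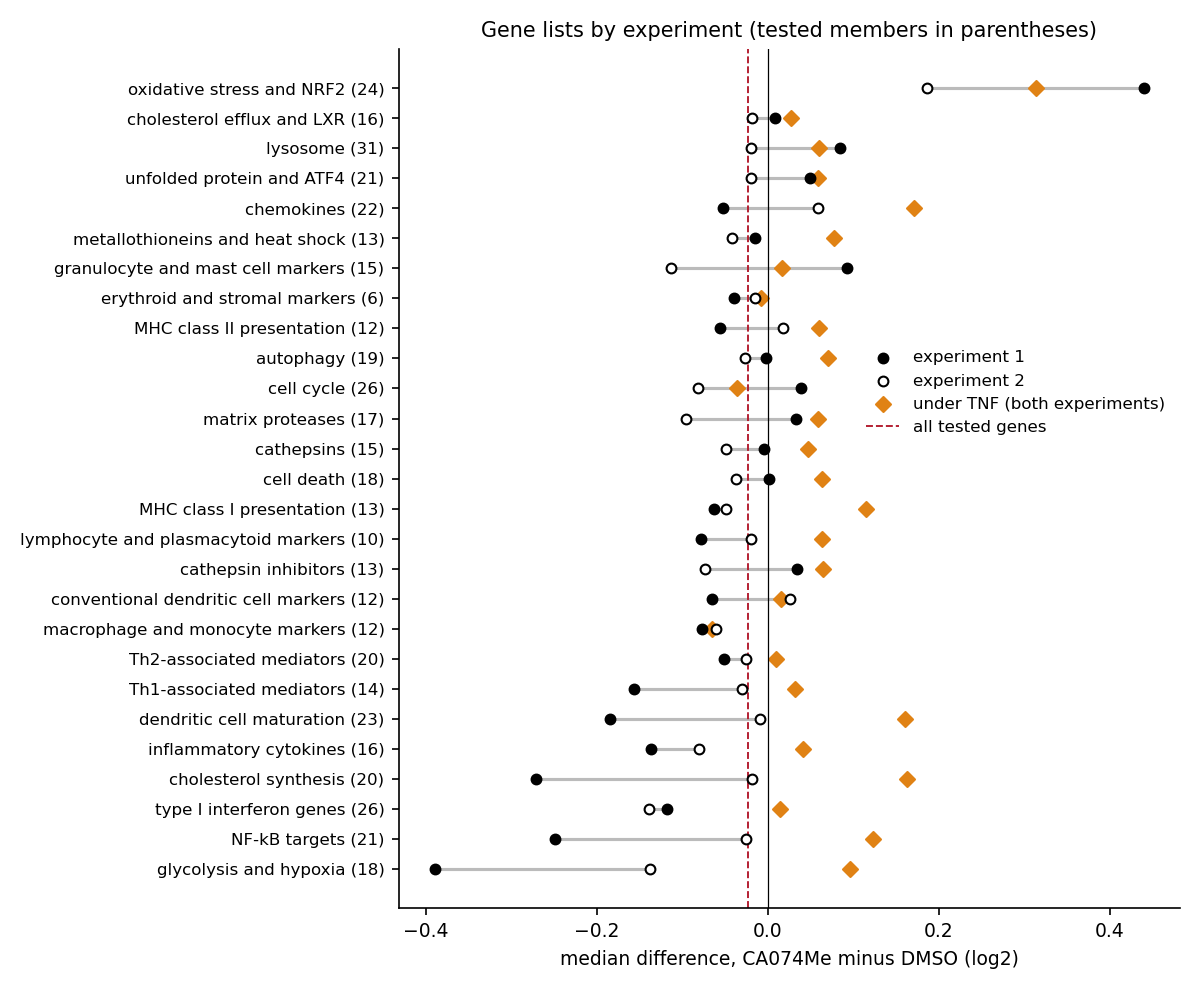
Median CA074Me minus DMSO difference in log2 units (x axis) of each of the 27 gene lists (y axis, tested members in parentheses), filled for experiment 1, open for experiment 2, with orange diamonds for CA074Me plus TNF against DMSO plus TNF; the dashed line is the median of all tested genes with CA074Me alone. The NRF2 list lies highest in both experiments and the glycolysis and hypoxia list lowest in experiment 1.

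Marker genes of dendritic cells, macrophages and granulocytes were all measured in the cultures. Itgax, an integrin subunit on the list of conventional dendritic cell markers, measured 12.08 and 11.21 with DMSO and 12.02 and 11.24 with CA074Me. Flt3, a receptor of conventional dendritic cells, lay between 8.41 and 8.61 on these 4 arrays and Zbtb46 between 10.08 and 10.46. The macrophage markers Csf1r (14.75 and 14.48 with DMSO) and Lyz2 (15.28 and 14.83) and the granulocyte marker S100a8 (14.86 and 14.78) were high in all of them. The monocyte receptor Ccr2 differed between experiments far more than with the inhibitor: 13.15 and 10.53 with DMSO, 13.01 and 10.15 with CA074Me.

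List medians were -0.04 for 12 conventional dendritic cell markers, -0.05 for 12 macrophage and monocyte markers (7 lower and 2 higher in both experiments), -0.00 for 15 granulocyte and mast cell markers, -0.03 for 10 lymphocyte and plasmacytoid markers and -0.00 for 6 erythroid and stromal markers. Of these 5 lists the only call in the 6-array fit was Pdgfrb. Kit, a mast cell and progenitor receptor, lay at -0.41 ± 0.19, from 10.03 and 10.79 with DMSO to 9.63 and 10.37. What part the mixture of cells has in the differences above was not tested.

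CLIK148 is the other inhibitor given alone, at the same 5 µM for 1 h, so the 2 compounds form 1 matched pair. The comparisons of each with DMSO share the DMSO arrays, and values are therefore set side by side and the difference between the compounds is tested directly. In the 10-array fit 0 of 12173 genes differed between CA074Me and CLIK148 (0%, lowest adjusted p = 0.318), with 691 at an unadjusted p under 0.05 (5.68%). The 6-array fit called 42 (0.345%), 9 higher with CA074Me (0.0739%) and 33 lower (0.271%), and the fit of the 4 arrays compared 166. Without the block the 6-array fit called 0. Among the 9 were 6 NRF2 genes, Gclm, Blvrb, Gclc, Hmox1, Txnrd1 and Abcc1, with Lipa, Cxcl5 and Cdkn2b.

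This comparison shares the CA074Me arrays with the one against DMSO, so that a like sign in both is no separate result. Of the 24 NRF2 genes, 20 were higher with CA074Me than with CLIK148 in both experiments, beside 20.3% of all genes, with a median of 0.27, whereas the median of CLIK148 against DMSO was -0.00. Gclm measured 11.53 and 11.42 with CLIK148 and stood 0.86 higher with CA074Me (95% confidence interval 0.30 to 1.42). Hmox1 measured 10.95 on both CLIK148 arrays and stood 0.51 higher (0.19 to 0.83). For Slc7a11 the interval of the difference included 0, from -0.02 to 0.82.

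Of the 18 glycolysis and hypoxia genes 16 were lower with CA074Me than with CLIK148 in both experiments, beside 31.6% of all genes, with a median of -0.26; CLIK148 against DMSO had a median of -0.00. Pdk1 measured 10.99 and 10.92 with CLIK148, differed by -0.51 with CA074Me (-0.73 to -0.29) and was the only member called in the 6-array fit (adjusted p = 0.018). Cholesterol synthesis genes were higher with CLIK148 than with DMSO (median 0.10), so that 18 of 20 were lower with CA074Me than with CLIK148 in both experiments, median -0.25, and none was called.

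For other genes a difference between the compounds was not shown. Kcnq1ot1 measured 7.85 and 7.79 with CLIK148 and differed by -0.08 (-0.23 to 0.07). Lockd differed by -0.19 (-0.41 to 0.04) and Ahnak by -0.22 (-0.46 to 0.03), both lower than DMSO with either compound. Pik3cd differed by 0.16 (-0.00 to 0.32), Ctsb by 0.11 (-0.08 to 0.31) and Ctsl by 0.04 (-0.13 to 0.20). These intervals leave room for differences of the sizes they span.

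The TNF cultures give a comparison that shares no array with the unstimulated one, though both come from the same 2 experiments. CA074Me plus TNF against DMSO plus TNF called 2 genes in the 10-array fit (0.0164%), with 807 at an unadjusted p under 0.05 (6.63%). Cxcl5 measured 7.32 and 8.95 with DMSO plus TNF and 8.45 and 9.92 with CA074Me plus TNF and rose by 1.05 ± 0.08 (adjusted p = 0.0035). Blvrb measured 12.21 and 11.35 against 13.02 and 12.03 and rose by 0.74 ± 0.08 (adjusted p = 0.041). Without TNF they had stood 0.39 and 0.46 above DMSO. Without the block neither was called, and leaving out the first CA074Me plus TNF array ended both calls (adjusted p = 0.10 and 0.20); Blvrb was also lost in 8 other settings.

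The NRF2 genes were higher under TNF too. Of the 24, 21 were higher in both experiments (29.7% of all genes), with a median of 0.31, and 18 in all 4 differences, alone and under TNF, beside 5.89% of all genes. Gclm differed by 1.39 and 0.58 under TNF, Srxn1 by 1.56 and 0.76, Hmox1 by 1.12 and 0.67, and Me1 by 0.51 in the mean. Txnrd1 and Slc7a11 were also higher with TNF and DMSO than with DMSO alone, Slc7a11 at 10.83 and 10.04. Sqstm1 stood 0.56 higher, from 12.49 and 12.48 to 13.11 and 12.99.

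Of the 4599 genes lower with CA074Me alone in both experiments, 1327 were higher in both under TNF (10.9% of all genes) and 1200 lower in both again (9.86%). Of the 18 glycolysis and hypoxia genes 12 were lower in both experiments alone and higher in both under TNF, beside 10.9% of all genes, and their median under TNF was 0.10. Egln3 measured 12.16 and 12.28 with DMSO plus TNF and 12.38 and 12.43 with CA074Me plus TNF, and Ndrg1 differed by 0.08 and -0.02. Selenbp1 measured 10.62 and 11.51 against 10.69 and 11.47, the DMSO plus TNF array of experiment 1 already as low as CA074Me alone, and Mgarp, Abca1 and Ddit4 differed by 0.00, -0.06 and 0.00 in the mean. Cholesterol synthesis genes were higher in both experiments in 19 of 20, with a median of 0.16, NF-kB targets in 14 of 21, with a median of 0.12. With reference-gene scaling the 2 counts were 18 and 4, and after cyclic loess 20 and 9, so the NF-kB count depended on the scaling. Of all 12173 genes 3618 were higher in both under TNF as deposited, 2725 with reference-gene scaling and 3420 after cyclic loess.

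The difference between the 2 settings was tested as an interaction, and 0 of 12173 genes passed (0%, lowest adjusted p = 0.564, 760 at an unadjusted p under 0.05, 6.24%). No gene named here is therefore shown to respond differently with and without TNF. The estimates were 0.75 (95% confidence interval 0.25 to 1.24) for Egln3, 0.77 (0.32 to 1.23) for Selenbp1, 0.65 (0.41 to 0.90) for Cxcl5 and 0.13 (-0.65 to 0.92) for Gclm. The list median of the interaction was 0.37 for glycolysis and hypoxia, 0.29 for cholesterol synthesis, 0.26 for NF-kB targets and 0.14 for the NRF2 genes, beside 0.03 for all genes. Across all 12173 genes, the differences alone and under TNF correlated with r = 0.161 (0.202 in experiment 1 and 0.136 in experiment 2), as a description.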

How the data were processed

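Per the submitters' processing notes the authors made the deposited log2 values in R 3.0.1 with RMA, which corrects background, normalises quantiles between arrays and summarises the probes of a set; its settings are not stated in the labels. Per the labels' protocols, 100 ng of RNA was amplified and labelled for each array. The table holds 45101 probe sets, of which the platform annotation gives 34958 a single gene, 932 several and 9211 none; 34754 of the first matched a RefSeq mouse gene. For each gene the probe set with the highest mean over 14 arrays represents it, and a gene was tested if it exceeded the median of the table, 7.52, on at least 2 arrays.

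limma 3.58.1 (R 4.3.3; lmFit and eBayes, 2-sided) fitted the differences over the 10 arrays of the 5 groups named in the report, with the experiment as a block and 4 residual degrees of freedom, and Benjamini-Hochberg adjustment over 12173 genes within a comparison. The CpG arrays were left out of this fit. The fit of the 6 unstimulated arrays had 2 residual degrees of freedom. The threshold was an adjusted p of 0.05. Same-numbered arrays paired: over 21 pairs of groups the gap between replicates correlated with r from 0.455 to 0.935 (0.876 for CA074Me and DMSO). The fit was tested on simulated data. The alternatives were other arrays in the fit, no block, array weights, other priors, filters, probe set rules and scalings, and each array left out.

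Genes named are the 10 in each direction with the smallest p and no overlap where none was called, the cathepsins, the 3 largest of each of 27 lists, the leading genes of the other comparisons, and the genes of the 6-array fit. Further list members were named for their role after their values were seen. The comparison and the lists were chosen with earlier results of these data known. Promoters come from RefSeq, and only the 250 bases before the start were used.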

Additional observations from a re-analysis of the deposited data

Results flagged for a closer look

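Probe sets that the annotation gives no single gene stand outside the comparisons of genes, and some were called when adjusted on their own. Tested on their own in the 10-array limma fit, 136 of 3034 bright ones were lower with CA074Me than with DMSO (4.48%) and 0 were higher (adjusted p under 0.05 over these probe sets alone), against 0 of 12173 genes called. Over all 3034 the median difference was -0.04 log2. Over the 136, which were chosen by this difference, it was -0.42, -0.56 in experiment 1 and -0.32 in experiment 2, and the median levels were 8.23 and 7.90 with DMSO and 7.74 and 7.58 with CA074Me. With CLIK148 the same probe sets lay at a median of -0.25 against DMSO, and with CA074Me under TNF at 0.07 against DMSO plus TNF. Fitted together with the genes, 0 of them were called, without the block 0 and with all 14 arrays 0. The 6 unstimulated arrays gave 151, all lower. Leaving out the first DMSO array or the first CA074Me array also left 0, the second DMSO array 188 and the second CA074Me array 104.

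For 26 of the 3034 probe sets the CA074Me difference itself differed with and without TNF by the interaction test of the same fit. All 26 had a higher difference under TNF. The adjustment ran over these probe sets alone, and 0 of 12173 genes passed that test. Other settings were not run for the 26.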

How the results depend on the processing

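The count of genes that changed with CA074Me alone was 0 in the limma fit of 10 arrays. It moved only with the arrays in the fit, to 36 with the 6 unstimulated arrays and 172 with the 4 compared, and stayed at 0 without the block, with all 14 arrays, under the other 9 settings and with any 1 array left out. Against CLIK148 it moved from 0 to 42 and 166 in the same 2 fits. The interaction count was 0 in all its settings. The 36 calls of the 6-array fit became 0 with no replicate block, 72 with array weights, 68 with no filter, 0 with the mean of probe sets, 1 when scaled on reference genes, 5 after cyclic loess and 4 to 546 with 1 array left out (4 without the first DMSO array, 154 without the second, 258 without the first CA074Me array and 546 without the second). These settings were chosen after seeing the data. Under TNF the 2 calls became 0 with no replicate block, 7 with reference-gene scaling, 0 to 86 with 1 array left out (86 without the first DMSO plus TNF array, 0 without the first CA074Me plus TNF array and 4 without the second), and 1 with the 4 arrays compared, all 14 arrays, the stricter filter, all probe sets, array weights, the mean of probe sets or cyclic loess. The block, by which the design pairs arrays, moved neither the interaction count nor, in the 10-array fit, the count against CLIK148; in the 6-array fit the 42 against CLIK148 became 0 without it, a fit added after seeing the data.

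Some genes turned sign. With the mean of probe sets Atp6v1h became -0.011, Ctsb -0.014 and Hif1a -0.041. With reference-gene scaling Ctss became 0.019, Itgax 0.016 and S100a8 0.017, and with cyclic loess Ctss 0.015, Itgax 0.035, S100a8 0.013, Tnf 0.010 and Zbtb46 0.0045. With 1 array left out Cd40 ran from -0.49 to 0.032, Csf1r ran from -0.12 to 0.056, Ctsb ran from -0.073 to 0.090, Ctsl ran from -0.059 to 0.12, Hif1a ran from -0.038 to 0.094, Itgax ran from -0.090 to 0.067, Keap1 ran from -0.0042 to 0.075, Lgmn ran from -0.17 to 0.29, Lyz2 ran from -0.088 to 0.0036, S100a8 ran from -0.072 to 0.052, Tfeb ran from -0.015 to 0.036, Tkt ran from -0.0065 to 0.014 and Tnf ran from -0.32 to 0.24. The cause was not tested. The number of arrays is what limits depth here: differences below about 0.16 log2 lie within the interval of a typical gene.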

Other observations

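Across the 12173 tested genes, experiment 2 minus experiment 1 had an SD of 0.30 log2 between the DMSO arrays, while CA074Me minus DMSO had 0.14 in experiment 1 and 0.10 in experiment 2.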
